A study of Ogataea parapolymorpha with 8 samples.

Results

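Cultures of the thermotolerant, methylotrophic yeast Ogataea parapolymorpha labelled as deleted for GUT2 and NADH dehydrogenase genes were compared with wild type cultures, both grown in aerobic chemostats per the labels, over all genes. The comparison rests on 4 of the 8 libraries of the series: 2 from mutant chemostats and 2 from wild type chemostats labelled aerobic, chosen by their labels. The mutant strain IMX2167 (gut2 deletion, ndi/nde deletion) was grown aerobically on 7.5 g/L glucose in SM medium at a dilution rate of 0.1 per hour and pH 5. The wild type strain CBS11895 was fed the same glucose at the same dilution rate, but in SM urea medium at pH 6 with pluronic acid as antifoam, 84 mg/L Tween 80 and 10 mg/L ergosterol. Genotype, strain, pH, nitrogen source and these supplements thus differed together and cannot be told apart in any value below. The remaining 4 libraries are given only as further levels. Of these, 2 are of wild type chemostats labelled micro-aerobic, fed glucose at 20 g/L in SM urea medium at the same pH and dilution rate, with Tween 80 at 420 mg/L and the same ergosterol. The other 2 are of the mutant in aerobic batch at pH 6, on the medium and starting glucose of its chemostat. The mutant is represented by 1 strain, and the sources used here do not give the extent of its deletions. Polyadenylated RNA was sequenced, and in whole cultures a smaller share of expressing cells and less RNA per cell cannot be told apart.

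Yeasts pass electrons from cytosolic NADH into the respiratory chain through external NADH dehydrogenases on the mitochondrial inner membrane, and through the glycerol-3-phosphate shuttle, whose mitochondrial enzyme is encoded by GUT2. Several yeasts, Ogataea among them, also have a proton-pumping complex I, which takes up NADH from the mitochondrial matrix and is absent from Saccharomyces cerevisiae. Sterol and heme synthesis need molecular oxygen, and in S. cerevisiae their oxygen-using steps are expressed more strongly when oxygen or heme is short. Ogataea also grows on methanol, whose oxidation takes place in peroxisomes and whose genes are repressed by glucose.

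The mutant chemostat libraries held 9549284 and 10087942 counts in genes, against 6104949 and 6749184 in the wild type libraries labelled aerobic. Levels are given as CPM, gene counts put on a common library size after TMM scaling, and 3 counts correspond to 0.265 to 0.295 CPM in the mutant chemostat and 0.473 to 0.572 CPM in wild type labelled aerobic. The 2 replicates of each of these groups differed from one another more than those of the other groups, with a biological coefficient of variation of 0.157 in the mutant chemostat and 0.153 in wild type labelled aerobic, beside 0.0782 in wild type labelled micro-aerobic and 0.0488 in the mutant batch. The root mean square log2 distance of the mutant chemostat was 1.2 to wild type labelled aerobic and 0.568 to wild type labelled micro-aerobic.

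The label aerobic was set beside the genes that S. cerevisiae raises at low oxygen, a list chosen, like the others, with earlier results of these data known. Most of its members are counted again below in the sterol, heme, fatty acid or carrier lists. Summed over the 14 genes of that list, the level was 9009 and 8286 CPM in the mutant chemostat, against 33429 and 34616 CPM in wild type labelled aerobic. The wild type labelled micro-aerobic had 11119 and 11220 CPM, and the mutant batch 9763 and 9736 CPM. The wild type labelled aerobic was thus the highest of the 4 groups, not the micro-aerobic one. In the mutant chemostat against wild type labelled aerobic, 11 of the 14 fell and 2 rose (1 without mutant chemostat replicate 2), with a median log2 ratio of -1.86, beside 0.03 over all genes tested; 29.4% of all genes tested were lower and 31.3% higher. HEM13 (coproporphyrinogen oxidase, an oxygen-using heme enzyme) had 88.6 and 84.5 CPM in the mutant chemostat, against 1202 and 1095 CPM in wild type labelled aerobic, and averaged 58.8 CPM in wild type labelled micro-aerobic. What raised these genes in wild type labelled aerobic was not tested. The group is therefore called wild type labelled aerobic throughout. Since the whole comparison rests on it, levels in wild type labelled micro-aerobic stand beside the main results. Values against that group share the mutant libraries, and its glucose and Tween 80 differ from both.

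The targeted genes were checked first. GUT2 (OPAR_001648, Chr_03, positions 740390 to 742327, plus strand) had 29.8 and 27.3 CPM in the mutant chemostat, against 393 and 381 CPM in wild type labelled aerobic. The log2 ratio was -3.76 ± 0.15 (SE, adjusted p = 1.2e-10, edgeR quasi-likelihood test), so the level in the mutant was lower but not 0. Values given below in parentheses with an error, or after a rise or fall, are log2 ratios of this kind, called at an adjusted p of 0.05. NDE1 (external NADH dehydrogenase, OPAR_004935, Chr_07, positions 732835 to 734477, plus strand) had 0.492 and 0.531 CPM in the mutant chemostat, against 66.4 and 72.1 CPM in wild type labelled aerobic, a log2 ratio of -7.04 ± 0.28. Both genes had levels of the same order in wild type labelled micro-aerobic, 348 CPM for GUT2 and 53.7 CPM for NDE1 on average. In the mutant batch, GUT2 averaged 103 CPM and NDE1 4.94 CPM. Counts of GUT2 thus remained in both mutant groups, 612 in the chemostat and 2060 in the batch libraries. A deletion of the whole gene would leave no transcripts of its own. The neighbouring gene PCD1 lies just past the end of GUT2 on the opposite strand, and no strand option is recorded for the counting. Reads from it may thus be included. PCD1 averaged 1738 CPM in the mutant chemostat and 87.4 CPM in the mutant batch. GUT2 averaged 28.6 and 103 CPM in these groups, in the same order. The source of the GUT2 counts was not tested. The strain is called the mutant by its label. No further gene is annotated as a type II NADH dehydrogenase outside complex I.

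The gene next to GUT2 moved the other way. PCD1 (a peroxisomal pyrophosphatase of coenzyme A, OPAR_001649, Chr_03, positions 742345 to 743621, minus strand) lies just past the end of GUT2 on the opposite strand. It had 1765 and 1711 CPM in the mutant chemostat, against 61.6 and 74.6 CPM in wild type labelled aerobic, a log2 ratio of 4.67 ± 0.18. The mutant batch averaged 87.4 CPM of PCD1 and wild type labelled micro-aerobic 85.4 CPM, so the mutant chemostat stood apart from all 3 other groups. Beyond it, OPAR_001650, with universal stress protein domains, rose as well, with 202 and 177 CPM in the mutant chemostat, against 49.4 and 73.5 CPM in wild type labelled aerobic. On the other side of GUT2, RRP4, a subunit of the RNA exosome, averaged 89.8 CPM in the mutant chemostat and 105 CPM in wild type labelled aerobic and was not called. These neighbours, like every neighbour given by position below, were looked up after the values were seen.

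Across all genes, 5265 were tested and 3195 differed at an adjusted p threshold of 0.05, with 1648 higher (31.3%) and 1547 lower (29.4%) in the mutant chemostat. Every count of rises and falls per list below is to be read beside these shares. A list near them in both directions shows no trait of its own. Scaled by the upper quartile the split was 2057 higher and 1180 lower, and by library totals alone 2302 and 950, because these scalings move the median log2 ratio of all genes from 0.03 to 0.21 and 0.31. Differences of at least 2-fold were found in 783 genes that rose (14.9%) and 541 that fell (10.3%). Large differences were common in both directions: 93 genes rose and 81 fell at least 8-fold, and 24 rose and 14 fell at least 64-fold. In 4005 genes (76.1%) the libraries of the 2 groups did not overlap. No counts in either wild type library labelled aerobic were found for 12 of the genes tested, and all 12 were called higher, while no gene tested lacked counts in both mutant chemostat libraries. Such a gene passes the low-count filter only through counts in other groups, so these calls were in part set by the filter. The mutant chemostat libraries also held more counts, which makes a gene without counts there less likely.

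**Figure D1:**
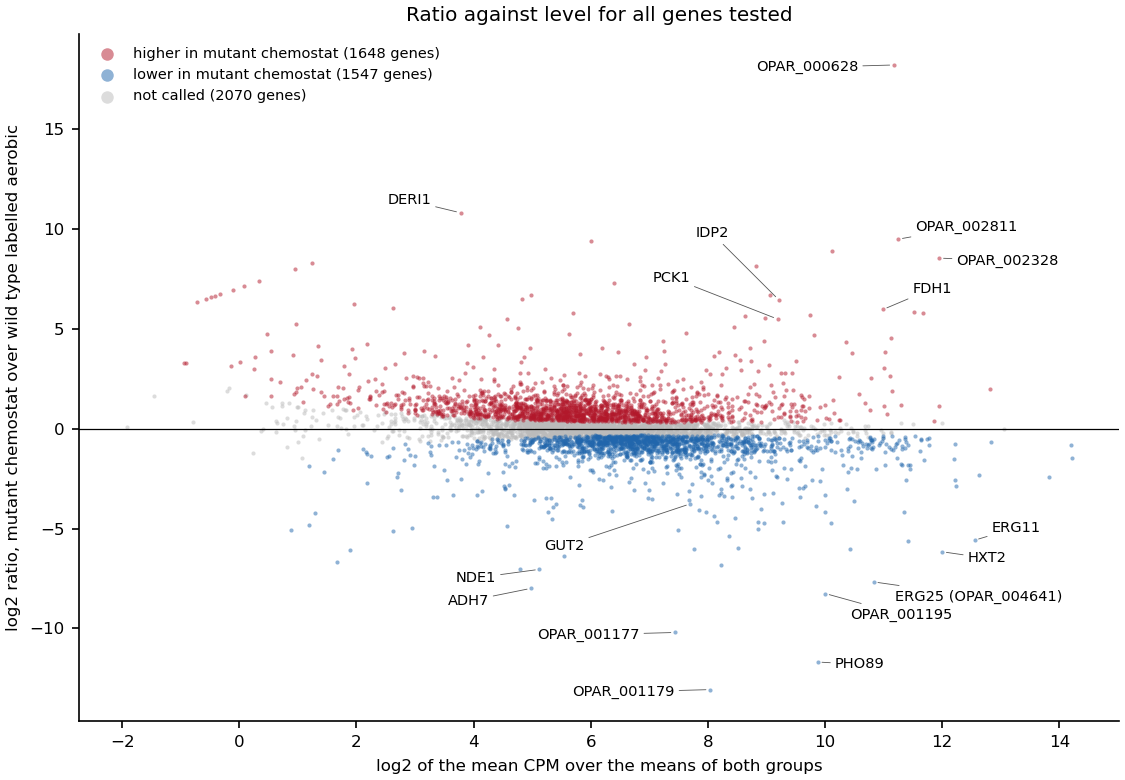
Log2 ratio of mutant chemostat over wild type labelled aerobic (vertical axis) against log2 of the mean CPM (horizontal axis), 1 point per gene tested, coloured by call. The 1648 higher and 1547 lower genes spread over the whole range of levels, and OPAR_000628, with no count in wild type labelled aerobic, lies farthest up.

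The 10 largest rises among genes with a symbol included genes of NADPH supply, methanol oxidation, gluconeogenesis and glycerol uptake. IDP2 (cytosolic NADP-dependent isocitrate dehydrogenase) had 1079 and 1258 CPM in the mutant chemostat, against 15.4 and 11.4 CPM in wild type labelled aerobic (log2 ratio 6.46 ± 0.19). FDH1 (formate dehydrogenase, the last step of methanol oxidation) had 4643 and 3368 CPM, against 59.3 and 68.2 CPM (5.97 ± 0.21). PCK1 (phosphoenolpyruvate carboxykinase, the committed step of gluconeogenesis) had 1313 and 971 CPM, against 22.7 and 27.8 CPM (5.49 ± 0.21). Groups that did not overlap were a condition for choosing the genes of this paragraph, so the gap between libraries is no separate result. ALD4 (mitochondrial acetaldehyde dehydrogenase) reached 4942 and 3679 CPM in the mutant chemostat, against 192 and 181 CPM (4.53 ± 0.18). STL1 (glycerol uptake by proton symport) had 965 and 939 CPM in the mutant chemostat, against 57.4 and 35 CPM (4.37 ± 0.20).

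The 10 largest falls among genes with a symbol included nutrient transporters and 2 sterol genes. PHO89 (sodium-coupled phosphate transporter) had 0.197 and 0.884 CPM in the mutant chemostat, against 1755 and 2005 CPM in wild type labelled aerobic, a log2 ratio of -11.68 ± 0.29. Wild type labelled micro-aerobic averaged 231 CPM of it, and the mutant batch 3.31 CPM. HXT2 (a high-affinity glucose transporter in S. cerevisiae) had 120 and 106 CPM in the mutant chemostat, against 8788 and 7393 CPM in wild type labelled aerobic (-6.16 ± 0.18). ADH7 (an NADPH-dependent alcohol dehydrogenase) was almost without counts in the mutant chemostat, at 0.197 and 0.265 CPM, against 64.8 and 61.2 CPM (-7.99 ± 0.38). YHK8 (a membrane transporter of the major facilitator superfamily) had 5.51 and 4.95 CPM in the mutant chemostat, against 463 and 716 CPM (-6.82 ± 0.25). Groups that did not overlap were a condition for choosing these genes too.

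A run of neighbouring genes on Chr_02 held the largest rise of all. OPAR_000628, annotated with glycoside hydrolase family 3 domains (positions 29569 to 32096, minus strand), had 5592 and 3654 CPM in the mutant chemostat and no count in either wild type library labelled aerobic, so it was at least 17647-fold higher, set against 3 counts over the group. Beside it, OPAR_000629 (dihydroxyacetone kinase domains, positions 32829 to 34640) had 136 and 121 CPM in the mutant chemostat, against 0.191 and 0.158 CPM, 740 times as much (95% interval from counting alone, 205 to 6113). DERI1 (annotated as D-erythrulose-4-phosphate isomerase, OPAR_000630, positions 34888 to 35379) had 28.5 and 26.2 CPM in the mutant chemostat and none in wild type labelled aerobic, at least 105-fold higher. The next gene, OPAR_000631, a transporter with the sugar transporter signature (positions 35781 to 37397), had 1032 and 773 CPM in the mutant chemostat, against 3.62 and 2.68 CPM (log2 ratio 8.17 ± 0.24). A zinc cluster transcription factor, OPAR_000632, and a short-chain dehydrogenase, OPAR_000633, follow on the chromosome and rose too, the first by 3.31 ± 0.36 and the second at least 14.7-fold. All 6 neighbours thus rose, and in wild type labelled micro-aerobic they lay between the groups, with means of 1646 CPM for OPAR_000628 and 2.87 CPM for DERI1. The mutant batch had at most 6.71 CPM of any of them in a library.

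The largest fall lay in another run on Chr_02. OPAR_001179, with a flavin-containing monooxygenase domain (positions 955823 to 957364, plus strand), had 0 and 0.0884 CPM in the mutant chemostat, against 524 and 527 CPM in wild type labelled aerobic, and no count in wild type labelled micro-aerobic or the mutant batch. With 1 count in the mutant chemostat, wild type labelled aerobic had 11287 times as much, with a 95% interval from counting alone of 2025 to 445866. OPAR_001177, with the domain of taurine dioxygenases (positions 952273 to 953613), had 0.197 and 0.354 CPM in the mutant chemostat, against 395 and 298 CPM (log2 ratio -10.20 ± 0.32). Between them, OPAR_001178, a transporter of the major facilitator superfamily, had 0 and 0.0884 CPM in the mutant chemostat, against 8.01 and 4.58 CPM. Taurine dioxygenases release sulfite from sulfonates, and the related JLP1 (sulfonate dioxygenase, OPAR_001254) fell as well, with 9.94 and 12.9 CPM in the mutant chemostat, against 723 and 711 CPM (-5.96 ± 0.19). Farther along Chr_02, OPAR_001195, with a FAD-binding monooxygenase domain, had 7.38 and 6.1 CPM in the mutant chemostat, against 2085 and 2009 CPM (-8.25 ± 0.21). Near it VHT1, which takes up biotin, had 1.48 and 0.796 CPM in the mutant chemostat, against 84.5 and 100 CPM (-6.35 ± 0.33). Every gene from OPAR_001193 to VHT1, 5 in all, fell, the other 3 by 2.26 to 3.78 on the log2 scale.

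The other large falls in genes without a symbol were these. OPAR_001973, a major facilitator transporter, had 40.6 and 44.4 CPM in the mutant chemostat, against 2729 and 2702 CPM in wild type labelled aerobic. OPAR_002173, with no annotated domain, had 5.02 and 7.96 CPM in the mutant chemostat, against 480 and 377 CPM. That neither overlapped between the groups was a condition of their choice.

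**Figure D2:**
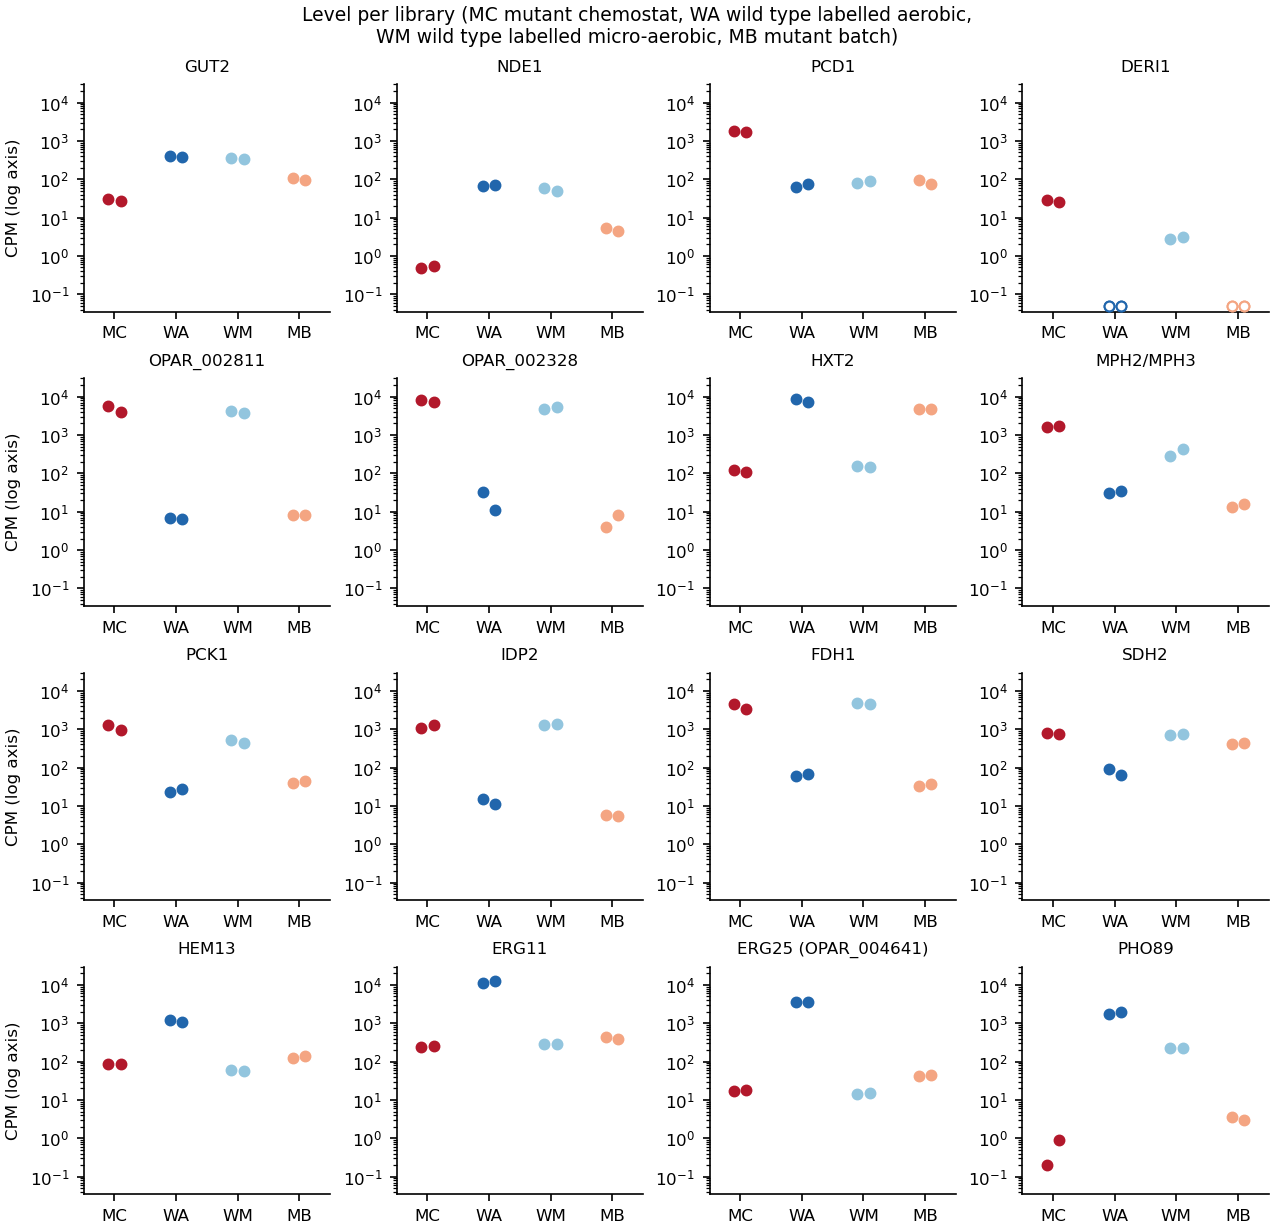
CPM of 16 genes in each library on a log axis, for the mutant chemostat (MC), wild type labelled aerobic (WA), wild type labelled micro-aerobic (WM) and mutant batch (MB), with open circles at the bottom for a library without counts. HEM13, ERG11 and ERG25 are high in wild type labelled aerobic alone, while OPAR_002811, OPAR_002328 and FDH1 are low there and in the mutant batch.

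Glycolysis was lower in the mutant chemostat as a whole. All 12 genes of the list fell, each at least 2-fold, with a median log2 ratio of -2.01, beside 0.03 over all genes tested. HXK2 (hexokinase) had 187 and 190 CPM in the mutant chemostat, against 2102 and 1610 CPM in wild type labelled aerobic (-3.30 ± 0.16). GPM1 (phosphoglycerate mutase) had 1022 and 1324 CPM in the mutant chemostat, against 9418 and 7506 CPM (-2.85 ± 0.18). The smallest fall was that of PFK2 (a subunit of phosphofructokinase), -1.12, and TDH2 (glyceraldehyde-3-phosphate dehydrogenase), the member with the most counts, averaged 10112 CPM in the mutant chemostat and 27752 CPM in wild type labelled aerobic. Summed over the list, the level was 22915 and 20055 CPM in the mutant chemostat, against 79498 and 75218 CPM. In wild type labelled micro-aerobic the sum was 29007 and 28955 CPM.

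Of 11 genes of fermentation and the pyruvate bypass, 6 rose, 2 of them at least 2-fold, and 4 fell, 3 of them at least 2-fold (median 0.44). The rises past 2-fold were those of ALD4 and ACS1. PDC5 (pyruvate decarboxylase) averaged 1252 CPM in the mutant chemostat and 4367 CPM in wild type labelled aerobic, a log2 ratio of -1.80, and ADH2 (alcohol dehydrogenase) averaged 13699 CPM in the mutant chemostat and 23867 CPM, a log2 ratio of -0.80. The isoforms of acetyl-CoA synthetase moved in opposite directions. ACS1 had 3641 and 4159 CPM in the mutant chemostat, against 252 and 286 CPM (3.86 ± 0.17). ACS2 had 118 and 119 CPM in the mutant chemostat, against 487 and 621 CPM (-2.23 ± 0.15). PYC1 (pyruvate carboxylase) rose by 0.87.

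The tricarboxylic acid (TCA) cycle was higher in the mutant chemostat. Of its 19 genes, counted with pyruvate dehydrogenase, 15 rose and none fell (median 1.2). The rises were largest at succinate dehydrogenase, fumarase, aconitase and citrate synthase. SDH2, the iron-sulfur subunit of succinate dehydrogenase, had 810 and 750 CPM in the mutant chemostat, against 89.2 and 62.5 CPM in wild type labelled aerobic (3.37 ± 0.17). SDH1, the flavoprotein subunit, had 1043 and 866 CPM in the mutant chemostat, against 108 and 99.6 CPM (3.20 ± 0.15). ACO1 (aconitase) had 3962 and 3349 CPM in the mutant chemostat, against 449 and 441 CPM (3.04 ± 0.15). FUM1 (fumarase) rose by 3.06 ± 0.16 and CIT1 (citrate synthase) by 2.78. Members not called included 3 subunits of pyruvate dehydrogenase, PDB1 (-0.17), LAT1 (0.16) and LPD1 (-0.21). The other subunits of that enzyme rose less than the genes of the cycle named here, PDA1 by 0.57 and PDX1 by 0.77. Without mutant chemostat replicate 1, or without wild type labelled aerobic replicate 2, 1 member fell.

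All 4 genes of the glyoxylate cycle and gluconeogenesis rose (median 3.41). ICL1 (isocitrate lyase) had 40.1 and 41.1 CPM in the mutant chemostat, against 3.62 and 0.947 CPM in wild type labelled aerobic (4.21 ± 0.30). MLS1 (malate synthase) had 203 and 191 CPM in the mutant chemostat, against 31.5 and 33.1 CPM (2.61 ± 0.14). FBP1 (fructose-1,6-bisphosphatase) rose by 1.25 ± 0.14. The mutant chemostat was not the group with the most ICL1, since wild type labelled micro-aerobic averaged 728 CPM.

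The pentose phosphate pathway, a source of cytosolic NADPH, rose in 7 of 8 genes (median 1.1) with no fall, or 1 fall without wild type labelled aerobic replicate 2. ZWF1 (glucose-6-phosphate dehydrogenase) had 387 and 309 CPM in the mutant chemostat, against 97.1 and 103 CPM in wild type labelled aerobic (1.80 ± 0.14). RKI1 (ribose-5-phosphate isomerase) had 385 and 228 CPM in the mutant chemostat, against 82.2 and 70.2 CPM (2.01 ± 0.21). GND1 (6-phosphogluconate dehydrogenase) rose by 1.26 ± 0.14. Transaldolase is annotated at adjacent numbers, and OPAR_000195 rose by 0.83 while OPAR_000194 (-0.29) was not called.

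**Figure D3:**
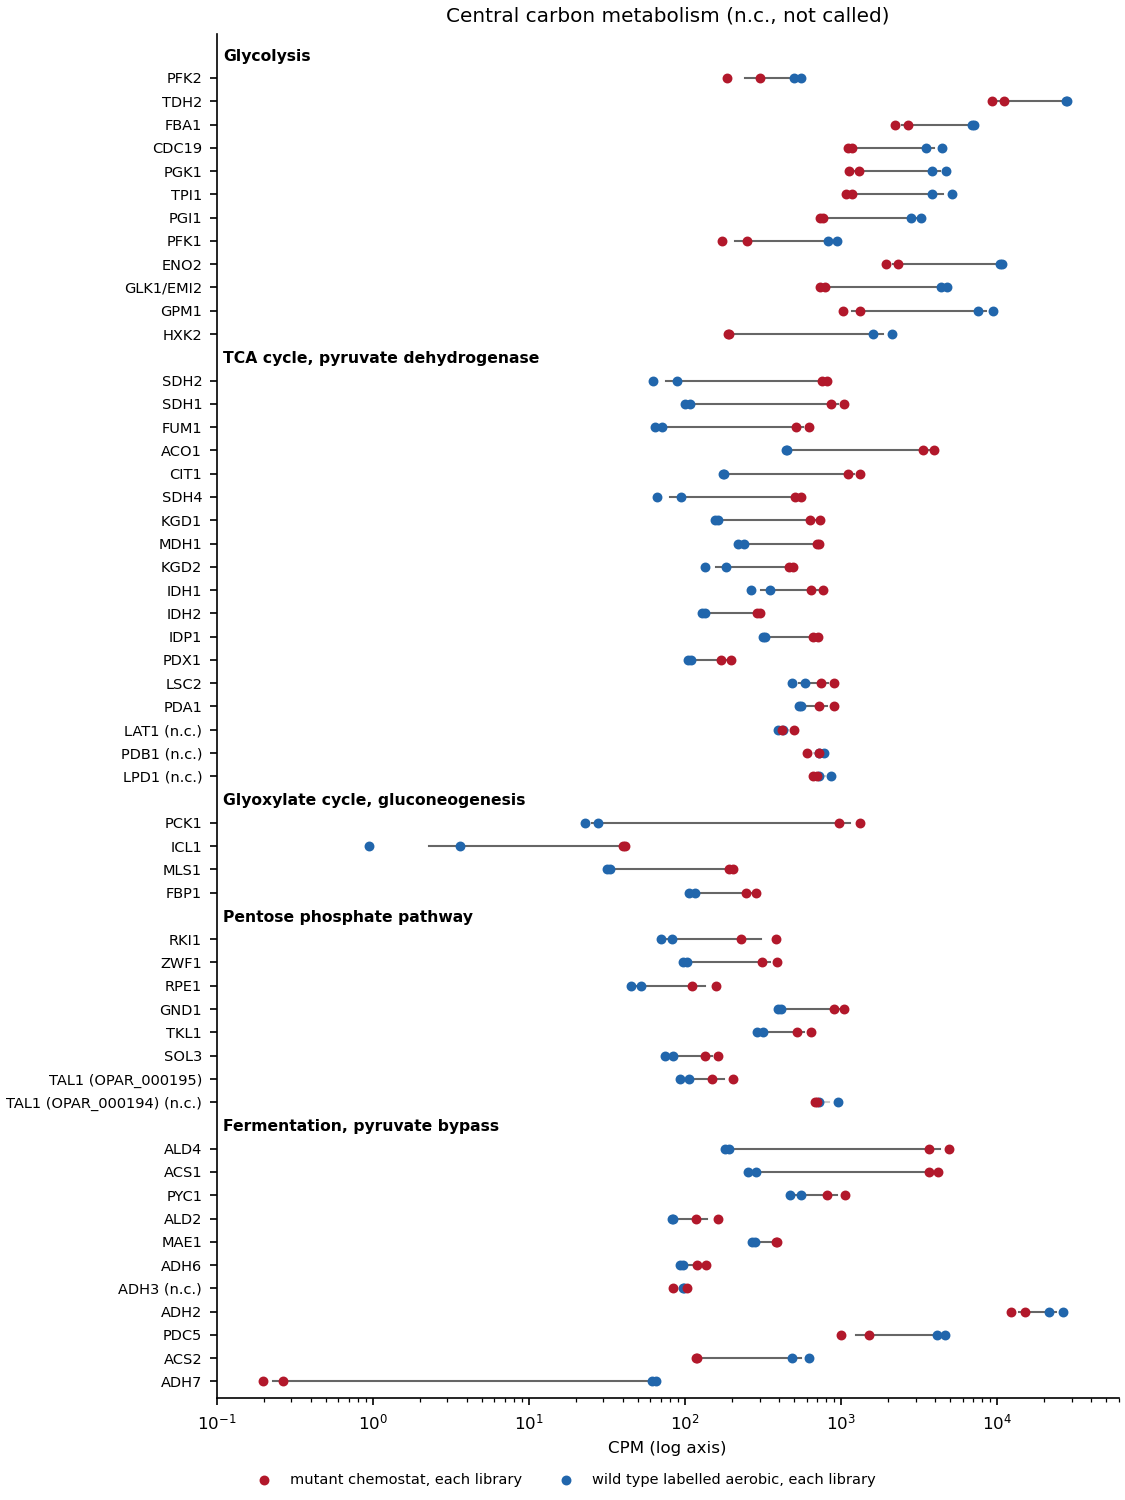
CPM of each central carbon gene in each library on a log axis, with a line between the group means and n.c. for genes not called. All 12 glycolysis genes lie lower in the mutant chemostat, while 15 of 19 TCA cycle genes (1 of the 19, not called, is not drawn), 4 of 4 glyoxylate and gluconeogenesis genes and 7 of 8 pentose phosphate genes lie higher.

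The complexes of the respiratory chain did not move together. Complex I, the proton-pumping NADH dehydrogenase, rose in 15 of 15 nuclear genes (median 0.98), 7 of them at least 2-fold. OPAR_004897, with the domain of the 20 kDa subunit, had 561 and 425 CPM in the mutant chemostat, against 109 and 107 CPM in wild type labelled aerobic (2.19 ± 0.15). ALI1, in the list by its annotation, had 715 and 560 CPM in the mutant chemostat, against 187 and 194 CPM (1.74 ± 0.14). Summed over the list, complex I stood at 6691 and 6744 CPM in the mutant chemostat, against 3508 and 3210 CPM. The sum in wild type labelled micro-aerobic was 6082 and 6229 CPM, and in the mutant batch 3288 and 3013 CPM.

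Succinate dehydrogenase (complex II) rose in 3 of 3 genes (median 3.20). In complex III with cytochrome c, 4 of 9 rose and none fell (median 0.35). With scaling by upper quartile or by totals, or without wild type labelled aerobic replicate 1, 8 rose, and 1 fell without wild type labelled aerobic replicate 2, with RLE size factors, without a low-count filter, without overlapping genes, in DESeq2 or in the likelihood ratio test. RIP1, the Rieske iron-sulfur protein, had 483 and 447 CPM in the mutant chemostat, against 242 and 184 CPM in wild type labelled aerobic (1.13 ± 0.15). COR1 and QCR2, the core subunits, each rose by 1.09. CYC1 (cytochrome c) averaged 676 CPM in the mutant chemostat and 934 CPM in wild type labelled aerobic and was not called.

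Complex IV, cytochrome c oxidase, went the other way: none of 8 genes rose and 7 fell (median -0.88). COX15, which makes heme a, fell most, with 109 and 124 CPM in the mutant chemostat, against 630 and 648 CPM in wild type labelled aerobic (-2.46 ± 0.13). COX6, a structural subunit, had 706 and 908 CPM in the mutant chemostat, against 1910 and 1415 CPM (-1.04 ± 0.17). COX4 (-0.39) was not called. ATP synthase rose in 10 of 12 genes (median 0.91) and fell in none, or in 1 without replicate 2 of either group, with RLE size factors, in DESeq2 or in the likelihood ratio test. ATP4 had 1282 and 1000 CPM in the mutant chemostat, against 624 and 482 CPM (1.04 ± 0.16), and INH1, which inhibits ATP hydrolysis by the enzyme, rose by 1.09 ± 0.23. The call on ATP18 (2.01 ± 0.57), at 4.62 and 3.10 CPM in the mutant chemostat, against 0.572 and 1.26 CPM, was lost without mutant chemostat replicate 1 (1.69) or without wild type labelled aerobic replicate 1 (1.58).

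Ubiquinone carries electrons from these dehydrogenases to complex III. Of its 10 synthesis genes 3 rose and 4 fell (median -0.31). COQ4 averaged 58.0 ± 11.4 CPM in the mutant chemostat and 312 ± 7.01 CPM in wild type labelled aerobic (SD, n = 2 each), a log2 ratio of -2.43 ± 0.15. COQ7, a hydroxylase that uses oxygen, had 108 and 103 CPM in the mutant chemostat, against 458 and 364 CPM (-1.96 ± 0.15), and it overlaps another gene. COQ2, which joins the ring to its side chain, rose by 1.27 ± 0.16. None of these genes overlapped between the groups, nor did 76.1% of all genes tested.

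Of 10 genes for NADH shuttles and for reduction of fumarate and orotate, 6 rose and 2 fell (median 0.66). MDH1 (mitochondrial malate dehydrogenase) had 702 and 723 CPM in the mutant chemostat, against 237 and 219 CPM in wild type labelled aerobic (1.64 ± 0.13). AGC1, the aspartate and glutamate carrier, had 329 and 408 CPM in the mutant chemostat, against 158 and 193 CPM (1.07 ± 0.15). AAT1 (mitochondrial aspartate aminotransferase) fell strongly, with 172 and 180 CPM in the mutant chemostat, against 1389 and 1399 CPM (-2.99 ± 0.14), while the cytosolic form AAT2 rose by 0.77. ADH3, the mitochondrial alcohol dehydrogenase of the ethanol and acetaldehyde shuttle, was not called (-0.08).

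Glycerol metabolism held 3 rises and, besides GUT2, no fall among 6 genes (median 0.41). DAK1 (dihydroxyacetone kinase) averaged 258 ± 112 CPM in the mutant chemostat and 34.4 ± 6.3 CPM in wild type labelled aerobic (SD, n = 2 each), a log2 ratio of 2.91 ± 0.26. GUT1 (glycerol kinase), which makes the substrate of GUT2, rose by 0.78 ± 0.13. GPD1/GPD2 (cytosolic glycerol-3-phosphate dehydrogenase), the other enzyme of the shuttle, averaged 176 CPM in the mutant chemostat and 173 CPM in wild type labelled aerobic and was not called.

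Mitochondrial carriers as a group rose in 19 of 32 genes and fell in 5, or in 3 with totals scaling (median 0.74). MPC1, of the mitochondrial pyruvate carrier, had 64.5 and 86.9 CPM in the mutant chemostat, against 18.5 and 14.8 CPM in wild type labelled aerobic (2.19 ± 0.19), and its partner MPC3 rose by 1.86. AAC3 (ADP and ATP carrier), which S. cerevisiae raises at low oxygen, rose as well, with a mean of 3565 CPM in the mutant chemostat and 974 CPM in wild type labelled aerobic (1.87). It thus moved against HEM13 and most of its list.

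Sugar transporters showed the largest spread of any list. Of 23 genes 17 rose, 16 of them at least 2-fold, and 3 fell (median 1.52, range -6.16 to 9.49). OPAR_002811 (Chr_05, positions 68920 to 70677, minus strand) had 5702 and 4045 CPM in the mutant chemostat, against 6.86 and 6.63 CPM in wild type labelled aerobic (9.49 ± 0.25). OPAR_002328 (Chr_04, positions 616712 to 618340, plus strand) had 8355 and 7462 CPM in the mutant chemostat, against 32.0 and 11 CPM (8.54 ± 0.42). OPAR_000609 (Chr_01, positions 986989 to 988527, minus strand) had 2004 and 2459 CPM in the mutant chemostat, against 4.20 and 5.05 CPM (8.90 ± 0.22). These genes carry the sugar transporter signature, and the annotation names no substrate. As HXT2 fell, the transporter that drew most counts differed between the groups: OPAR_002328 averaged 7908 CPM in the mutant chemostat and HXT2 8091 CPM in wild type labelled aerobic. The summed level was 22724 and 20344 CPM in the mutant chemostat, against 9958 and 8703 CPM.

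Maltose genes rose as neighbours. MPH2/MPH3, homologous to maltose permeases (OPAR_004743, Chr_07, positions 390283 to 392031, minus strand), had 1666 and 1699 CPM in the mutant chemostat, against 30.7 and 35.2 CPM in wild type labelled aerobic (5.67 ± 0.22). IMA2, homologous to an alpha-glucosidase (OPAR_004744, positions 393370 to 395064, plus strand), had 999 and 960 CPM in the mutant chemostat, against 20.4 and 21.8 CPM (5.53 ± 0.16). Both were higher than in wild type labelled micro-aerobic too, where they averaged 362 and 344 CPM. OPAR_004742, a zinc cluster protein on the far side of MPH2/MPH3, rose by 0.73, and OPAR_004745, beyond IMA2, was not called (0.01).

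Fatty acid oxidation and carnitine genes rose in 14 of 15 cases and fell in 1 (median 1.76). YAT1 (carnitine acetyltransferase) had 983 and 581 CPM in the mutant chemostat, against 16.0 and 15.8 CPM in wild type labelled aerobic (5.62 ± 0.25). FOX2, the multifunctional enzyme of peroxisomal beta-oxidation, had 745 and 599 CPM in the mutant chemostat, against 82.4 and 92.2 CPM (2.94 ± 0.16). POT1 (thiolase) rose by 2.93, CTA1 (peroxisomal catalase) by 2.62 and POX1 (acyl-CoA oxidase) by 1.14. The member that fell, PCS60, is a peroxisomal protein in the list by its symbol (-0.97). Peroxins, which build the peroxisome, rose in 9 of 16 genes and fell in 1, or in none with totals scaling (median 0.47). PEX11, which promotes peroxisome division, had 889 and 750 CPM in the mutant chemostat, against 107 and 117 CPM (2.87 ± 0.15). The rise of PEX10 (0.73) was not called without mutant chemostat replicate 1 (0.44) or without wild type labelled aerobic replicate 1 (0.68).

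Genes of methanol metabolism rose in 9 of 9 cases (median 2.91), although neither medium is labelled as holding methanol. Of the 9, DAK1, CTA1 and FBP1 are counted in other lists too. OPAR_002900, with the domains of the alcohol oxidase family, which oxidises methanol to formaldehyde in peroxisomes, had 6989 and 5822 CPM in the mutant chemostat, against 106 and 125 CPM in wild type labelled aerobic (5.79 ± 0.19). OPAR_000696, with transketolase domains as in dihydroxyacetone synthase, had 985 and 597 CPM in the mutant chemostat, against 48.8 and 48.3 CPM (4.02 ± 0.22). The other gene with transketolase domains, OPAR_000368, was low, with 1.77 and 1.41 CPM in the mutant chemostat and no count in wild type labelled aerobic, at least 6.11-fold higher. SFA1 (formaldehyde dehydrogenase) rose by 1.12 and FGH1 (S-formylglutathione hydrolase) by 0.85. Summed over the list, the level was 18761 and 15589 CPM in the mutant chemostat, against 1850 and 1778 CPM. Wild type labelled micro-aerobic was close to the mutant chemostat, at 20668 and 20395 CPM, and the mutant batch, at 2371 and 2406 CPM, was not.

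Sterol synthesis was lower in the mutant chemostat. Of 27 genes 21 fell, 8 of them at least 2-fold, and 2 rose (median -0.73). No member rose without mutant chemostat replicate 1 or wild type labelled aerobic replicate 2, and 1 rose without wild type labelled aerobic replicate 1, with RLE size factors or in DESeq2, and none with the 4 libraries alone. The largest falls were at steps that use oxygen. ERG11 (lanosterol 14-alpha-demethylase) had 240 and 253 CPM in the mutant chemostat, against 11161 and 12406 CPM in wild type labelled aerobic (-5.58 ± 0.17). Of the genes matched to ERG25 (C-4 methylsterol oxidase), OPAR_004641 had 17.1 and 18.4 CPM in the mutant chemostat, against 3677 and 3585 CPM (-7.67 ± 0.18), while OPAR_002868 fell by only -0.40. ERG3 (C-5 sterol desaturase) had 287 and 267 CPM in the mutant chemostat, against 4756 and 5134 CPM (-4.16 ± 0.15). NCP1 (the reductase that feeds electrons to ERG11) had 92.6 and 91.8 CPM in the mutant chemostat, against 882 and 915 CPM (-3.29 ± 0.13). ERG1 (squalene epoxidase, -3.20) and ERG5 (C-22 desaturase, -2.15) fell as well. Among steps that use no oxygen, HMG1 (HMG-CoA reductase, -0.76) and ERG13 (HMG-CoA synthase, -0.90) fell, and ERG9 (squalene synthase) and ERG7 (lanosterol synthase) rose by 0.39 and 0.47. In all 4 genes with values per library here, wild type labelled micro-aerobic lay near the mutant: ERG11 averaged 292 CPM there, ERG3 244 CPM, NCP1 150 CPM and OPAR_004641 15.0 CPM.

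Fatty acid synthesis rose in 4 and fell in 2 of 8 genes (median 0.38), and both falls were hydroxylases or desaturases. OLE1 (delta-9 desaturase, an oxygen-using enzyme) had 1594 and 1734 CPM in the mutant chemostat, against 4801 and 5108 CPM in wild type labelled aerobic (-1.57 ± 0.14). SCS7 (sphingolipid alpha-hydroxylase) had 168 and 219 CPM in the mutant chemostat, against 1359 and 1483 CPM (-2.88 ± 0.15). ACC1 (acetyl-CoA carboxylase) rose to 1452 and 1108 CPM in the mutant chemostat, against 341 and 492 CPM (1.62 ± 0.19). FAS1 (0.13) and FAS2 (0.09), the fatty acid synthase subunits, were not called.

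Heme synthesis fell in 6 of 11 genes and rose in 2, or in 1 without mutant chemostat replicate 2 and in 4 with upper quartile or totals scaling (median -0.76). Besides HEM13 (-3.73 ± 0.14), HEM1 (5-aminolevulinate synthase, the first step) had 202 and 116 CPM in the mutant chemostat, against 331 and 365 CPM in wild type labelled aerobic (-1.13 ± 0.20). HEM14 (protoporphyrinogen oxidase) and HEM12 (uroporphyrinogen decarboxylase) each fell by 1.06. HEM4 (uroporphyrinogen III synthase) rose to 48.0 and 45.4 CPM in the mutant chemostat, against 18.9 and 13.7 CPM (1.53 ± 0.19), and HMX1 (heme oxygenase, which breaks heme down) by 0.59.

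Iron and copper uptake fell in 7 of 8 genes and rose in 1 (median -1.14). FRE4 (ferric reductase) had 9.05 and 11.5 CPM in the mutant chemostat, against 274 and 427 CPM in wild type labelled aerobic (-5.09 ± 0.24). FET3 (multicopper ferroxidase) had 992 and 839 CPM in the mutant chemostat, against 2724 and 3760 CPM (-1.82 ± 0.17), and its partner permease FTR1 fell by 1.05. FRE7, a reductase that S. cerevisiae raises when copper is short, rose by 0.67. For FRE4, wild type labelled micro-aerobic lay between the groups at 183 CPM.

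**Figure D4:**
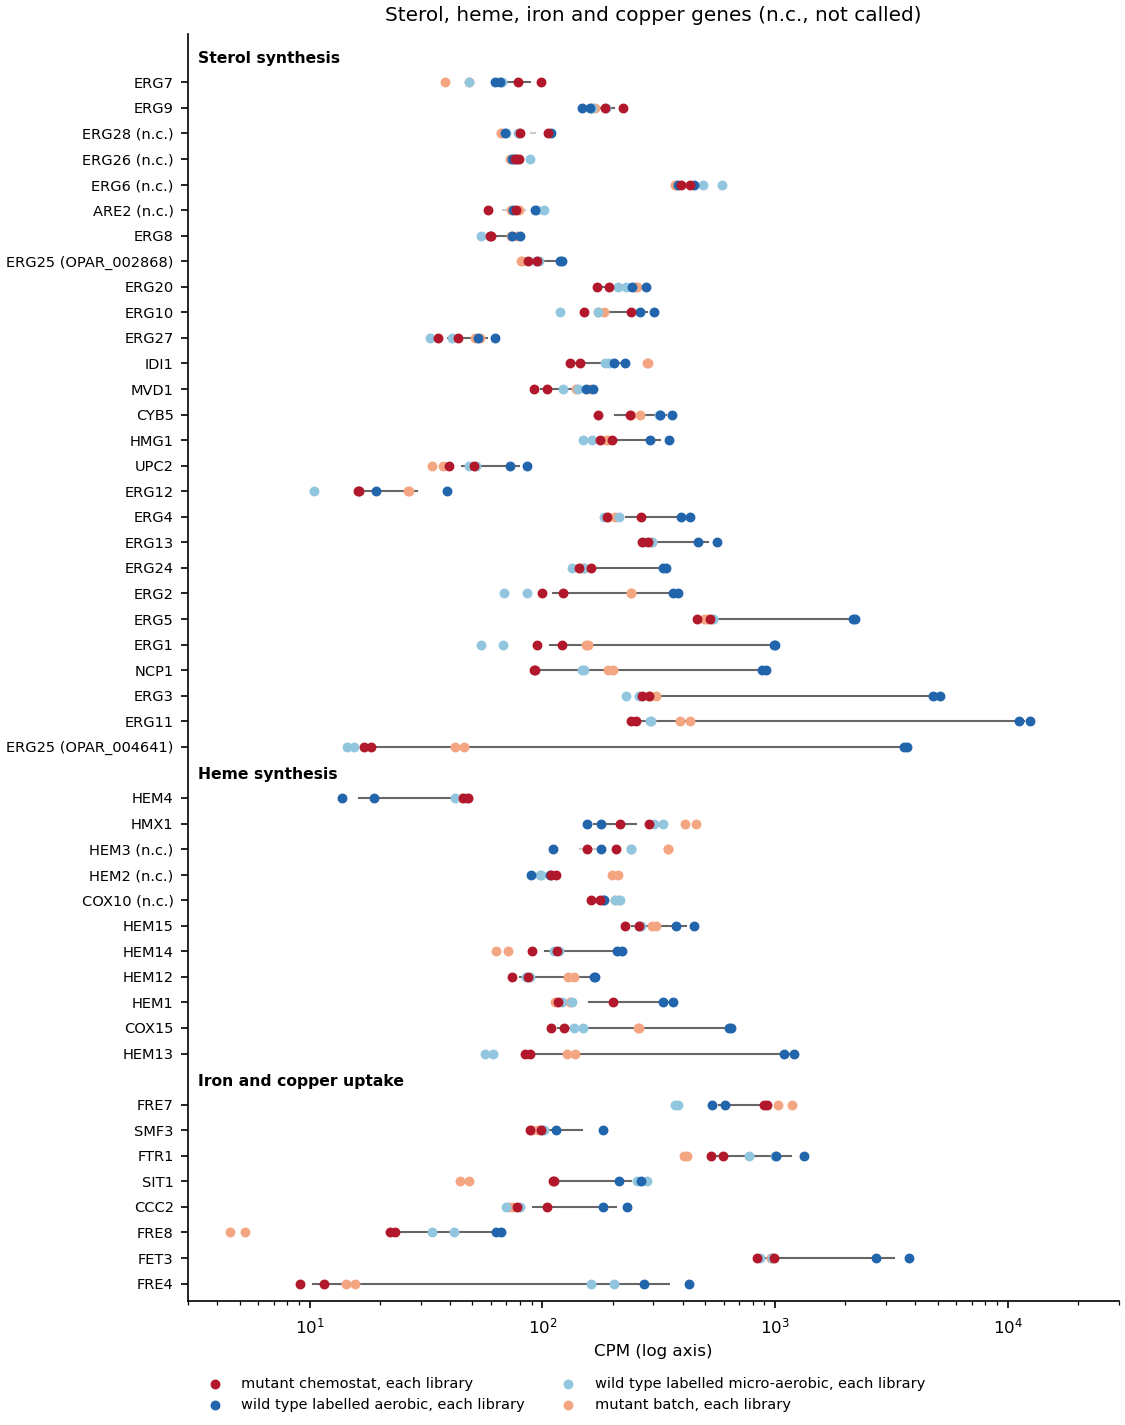
CPM of sterol, heme, iron and copper genes in each library of the 4 groups on a log axis, with a line between the means of mutant chemostat and wild type labelled aerobic and n.c. for genes not called. ERG11, ERG3, NCP1, the ERG25 gene OPAR_004641 and HEM13 are high in wild type labelled aerobic alone.

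Nitrogen genes were mixed, with urea genes lower in the mutant chemostat, whose medium is not labelled as holding urea. Of 27 genes 12 rose and 6 fell (median 0.23), beside 31.3% and 29.4% of all genes tested. DUR3 (urea permease) had 42.5 and 50.6 CPM in the mutant chemostat, against 1082 and 1306 CPM in wild type labelled aerobic (-4.68 ± 0.17). DUR1,2 (urea amidolyase, which breaks urea down) had 92.7 and 68.8 CPM in the mutant chemostat, against 364 and 452 CPM (-2.34 ± 0.18). DUR32, named as a second urea transporter (OPAR_000020), had 0.295 and 0.531 CPM in the mutant chemostat, against 46.9 and 63.6 CPM (-7.00 ± 0.35). It overlaps OPAR_000019 by its end, and that gene rose (1.27 ± 0.21). The amidase gene AMD2 beside it had 0.197 and 0 CPM in the mutant chemostat, against 8.2 and 6.47 CPM, so that wild type labelled aerobic had 77.9 times as much (95% interval from counting alone, 20.9 to 654). In wild type labelled micro-aerobic, also in SM urea medium, DUR3 averaged 427 CPM and DUR1,2 364 CPM. DUR32 averaged 0.798 CPM there and AMD2 0.239 CPM. The mutant batch averaged 30.3 CPM of DUR3, 136 CPM of DUR1,2, 6.86 CPM of DUR32 and 3.17 CPM of AMD2.

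Among the other nitrogen genes, UGA4 (permease for 4-aminobutyrate) rose to 60.3 and 41.7 CPM in the mutant chemostat, against 4.39 and 5.52 CPM in wild type labelled aerobic (3.35 ± 0.28). Glutamate metabolism was split: GLT1 (glutamate synthase) rose by 2.31 and GDH2 (the NAD-dependent glutamate dehydrogenase) by 1.48, and GDH1 (the NADPH-dependent form) fell by 1.05. Ammonium permease MEP2 (-0.04) and glutamine synthetase GLN1 (-0.13) were not called.

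Sulfate and sulfonate genes fell in 9 of 16 cases and rose in 2 (median -0.46). Without mutant chemostat replicate 1 or wild type labelled aerobic replicate 2, or with the 4 libraries alone, 1 rose, and with totals scaling 5 fell (median -0.18). SUL2 (sulfate permease) had 214 and 178 CPM in the mutant chemostat, against 1059 and 1155 CPM in wild type labelled aerobic (-2.50 ± 0.14). MET10 and MET1, for sulfite reductase and its siroheme, fell too, with log2 ratios of -1.12 ± 0.16 and -1.16 ± 0.14. MET3 (ATP sulfurylase, -0.21) and MET14 (0.02), the first enzymes after uptake, were not called.

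Phosphate genes, PHO89 apart, did not fall together: 4 of 14 rose and 4 fell, and the median of -0.05 was above 0 under upper quartile (0.13) or totals (0.23) scaling, the second with 5 rises and 1 fall. PHO84 (the high-affinity phosphate permease in S. cerevisiae) averaged 98.6 CPM in the mutant chemostat and 111 CPM in wild type labelled aerobic and was not called. GIT1 (glycerophosphoinositol uptake) had 290 and 235 CPM in the mutant chemostat, against 54.3 and 57.6 CPM (2.23 ± 0.16). PHO8 (vacuolar alkaline phosphatase) rose by 1.67 ± 0.17. Thiamine and biotin genes numbered 7, with 2 higher and 2 lower (median 0.12). THI21 rose by 1.2 ± 0.16, and the fall of BPL1 (biotin ligase, -0.38) was not called under upper quartile (-0.20) or totals (-0.11) scaling, nor with the 4 libraries alone, nor without either mutant chemostat library (-0.40 and -0.38) or wild type labelled aerobic replicate 2 (-0.19). Of this list 1 gene fell in each of these settings but the one without mutant chemostat replicate 1.

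Cytosolic ribosomal proteins fell in 51 of 85 genes and rose in 3 (median -0.55). With upper quartile scaling 40 fell and 6 rose, and with totals scaling 36 fell and 13 rose (median -0.26). RPS7B had 1058 and 1469 CPM in the mutant chemostat, against 4355 and 2689 CPM in wild type labelled aerobic (-1.48 ± 0.21). Summed over the list, the level was 80986 and 78398 CPM in the mutant chemostat, against 146731 and 105223 CPM in wild type labelled aerobic. The wild type libraries thus differed from one another in these genes, and the groups did not overlap. Without mutant chemostat replicate 2, 6 genes of the list rose, and without wild type labelled aerobic replicate 1, 5 rose. SIS1, in this list by its annotation, is a chaperone (-1.17 ± 0.16). For ribosome biogenesis, 14 of 95 rose and 29 fell (median -0.18), but 26 rose and 12 fell with totals scaling, under which the median was 0.10. DBP10 (RNA helicase) rose to 70.9 and 66.1 CPM in the mutant chemostat, against 9.92 and 13.7 CPM (2.52 ± 0.19), and UTP5 fell by 1.19 ± 0.13. The direction of that list therefore depends on the scaling. Without mutant chemostat replicate 1, 6 of its genes rose, and without either wild type library labelled aerobic, 9 rose.

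Mitochondrial ribosomal proteins rose in 19 and fell in 26 of 72 genes (median -0.16), and with upper quartile or totals scaling the median was 0.03 or 0.14, with 14 or 8 falls. Leaving out mutant chemostat replicate 1 gave 13 falls, and leaving out wild type labelled aerobic replicate 1 gave 11. OPAR_003054 fell most, with 68.2 and 80.8 CPM in the mutant chemostat, against 164 and 194 CPM in wild type labelled aerobic (-1.26 ± 0.15). OPAR_004444, with the domain of ribosomal protein S2, had 76.2 and 49.5 CPM in the mutant chemostat, against 24.4 and 28.1 CPM in wild type labelled aerobic (1.25 ± 0.21). OPAR_003236, in the list by its annotation, carries the domain of the membrane insertase family (1.23 ± 0.18) and overlaps another gene.

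Amino acid synthesis rose in 17 and fell in 26 of 61 genes (median -0.17), and with totals scaling in 22 and 17 (median 0.11). Over all genes tested, 31.3% were higher and 29.4% lower. ARG7 (arginine synthesis) had 107 and 78.1 CPM in the mutant chemostat, against 21.2 and 19.7 CPM in wild type labelled aerobic (2.18 ± 0.18). LEU4 (2-isopropylmalate synthase) rose by 1.6 ± 0.14. BAT2 (branched-chain aminotransferase) had 143 and 182 CPM in the mutant chemostat, against 672 and 600 CPM (-1.97 ± 0.15). The list thus held large changes in both directions. In it 11 genes rose without mutant chemostat replicate 1 or without either wild type library labelled aerobic.

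Chaperones fell in 11 of 21 genes and rose in 4 (median -0.50), and with totals scaling in 7 and 6 (median -0.21). HSP26, a small heat shock protein, had 19.9 and 22.9 CPM in the mutant chemostat, against 571 and 527 CPM in wild type labelled aerobic (-4.68 ± 0.30). KAR2, the main chaperone of the endoplasmic reticulum, had 463 and 659 CPM in the mutant chemostat, against 2170 and 1777 CPM (-1.81 ± 0.18). HSP60, the mitochondrial chaperonin, went the other way, with 917 and 806 CPM in the mutant chemostat, against 349 and 386 CPM (1.23 ± 0.14). HSP82 (-0.17) and HSF1 (-0.18), the factor that controls heat shock genes, were not called.

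Of 19 genes for defence against oxidants, 8 were higher and 5 lower (median 0.23), beside 31.3% and 29.4% of all genes tested. SOD2 (mitochondrial superoxide dismutase) had 1091 and 1030 CPM in the mutant chemostat, against 152 and 156 CPM in wild type labelled aerobic (2.78 ± 0.13), and it overlaps another gene. CCP1 (cytochrome c peroxidase of mitochondria) had 789 and 666 CPM in the mutant chemostat, against 167 and 140 CPM (2.25 ± 0.15). The peroxiredoxin TSA1 fell to 283 and 217 CPM in the mutant chemostat, against 1700 and 1301 CPM (-2.59 ± 0.18). A peroxiredoxin matched to PRX1 (OPAR_005031) had 4964 and 4232 CPM in the mutant chemostat, against 25965 and 22783 CPM (-2.41 ± 0.17).

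Of 12 storage carbohydrate genes, 3 were higher and 4 lower (median 0.11), near the shares over all genes tested (31.3% and 29.4%). With totals scaling the counts were 7 and 4. ATH1 (acid trehalase) rose to 259 and 171 CPM in the mutant chemostat, against 23.6 and 31.6 CPM in wild type labelled aerobic (2.95 ± 0.22). TPS1 (-1.64) and TPS3 (-1.66 ± 0.13), for trehalose synthesis, fell. In glycogen metabolism GLG2 (glycogenin) rose by 1.76 ± 0.14 and GSY2 (glycogen synthase) by 1.39, and GPH1 (glycogen phosphorylase) fell by 1.75 ± 0.16. Of the genes named here, those of trehalose synthesis fell and that of its breakdown rose, and glycogen genes did the reverse. These genes are part of a list in which 5 of 12 were not called. Its median (0.11) lay near that over all genes tested (0.03), so no pattern for the list follows.

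Autophagy held 4 rises and 5 falls among 21 genes (median 0.04), and 7 rises without wild type labelled aerobic replicate 2. With totals scaling 8 rose and 3 fell. ATG1, the kinase that starts autophagy, had 138 and 146 CPM in the mutant chemostat, against 667 and 836 CPM in wild type labelled aerobic (-2.40 ± 0.15). ATG8 (-0.28) was not called. Mating and meiosis genes rose in 4 and fell in 5 of 17 cases (median 0.10), and in 7 and 2 with totals scaling. In both lists the main counts lay near or below the shares over all genes tested (31.3% higher and 29.4% lower). SPO11 (-1.73 ± 0.18), of meiotic recombination, and the kinase KSS1 (-1.54 ± 0.13) fell most.

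Cell cycle and histone genes, counted together, rose in 10 of 21 cases and fell in 2 (median 0.28). The rises included PCL1 (G1 cyclin), which had 187 and 123 CPM in the mutant chemostat, against 20.8 and 29.4 CPM in wild type labelled aerobic (2.62 ± 0.22). The factors that act at the start of the cycle rose together: SWI4 by 1.44 ± 0.19, SWI6 by 1.48 ± 0.26 and MBP1 by 1.42 ± 0.18, the last pair overlapping other genes. CDC28, the main kinase of the cell cycle, fell by 0.76.

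Of 27 cell wall and pH response genes, 9 rose and 6 fell (median -0.05), near or below the shares over all genes tested (31.3% and 29.4%). With upper quartile scaling 11 rose and 4 fell (median 0.13), and with totals scaling 12 and 2 (median 0.22). PMA2 (plasma membrane proton pump) had 3919 and 3136 CPM in the mutant chemostat, against 1516 and 1533 CPM in wild type labelled aerobic (1.21 ± 0.15). The vacuolar proton pump was mixed, with VMA13 (1.27 ± 0.15) and VPH1 (0.85 ± 0.16, overlapping another gene) higher and VMA1 (-0.18), VMA2 (-0.27) and VMA3 (-0.18) not called. Of the genes of the RIM pathway, which responds to alkaline pH, RIM8 fell by 0.35 and RIM9, RIM13, RIM20 and RIM21 were not called.

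**Figure D5:**
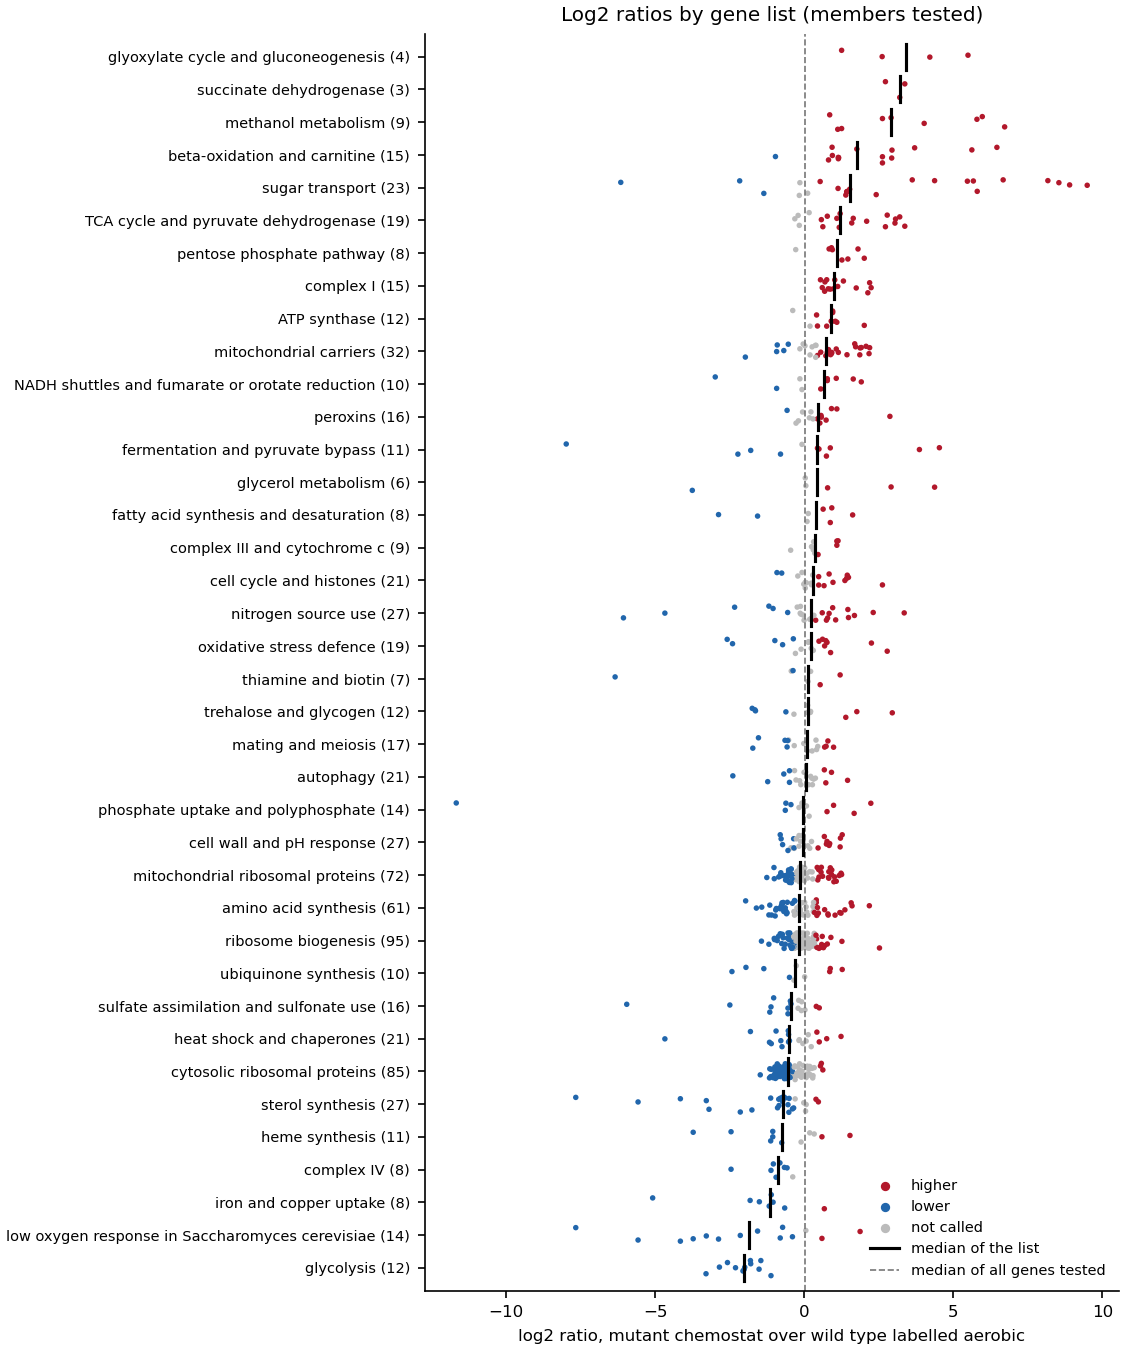
Log2 ratios of mutant chemostat over wild type labelled aerobic for each gene list with 3 or more tested members (1 point per gene, coloured by call), with the list's median (bar) and the median of all genes tested (dashed line). Medians of the lists drawn ran from 3.41 for the glyoxylate cycle and gluconeogenesis to -2.01 for glycolysis.

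Set against wild type labelled micro-aerobic instead, the same mutant libraries gave fewer calls. In all 1425 of 5265 genes differed (27.1%), 722 higher (13.7%) and 703 lower (13.4%), and 164 rose (3.11%) and 100 fell (1.9%) at least 2-fold. Glycolysis then held 3 rises and 1 fall among 12 genes (median 0.01), and the TCA cycle no rise and 2 falls among 19 (median -0.13). Sterol synthesis held 3 rises and 5 falls among 27 (median 0.07), and the methanol list no rise and 2 falls among 9 (median -0.23). Complex I still held 6 rises and no fall among 15 genes (median 0.32), and sugar transport 8 rises and 3 falls among 23 (median 0.30).

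The genes named above split in this second set of values. GUT2 (-3.61 ± 0.15), NDE1 (-6.67 ± 0.28), PHO89 (-8.66), DUR3 (-3.20) and PCD1 (4.35) kept a large ratio against wild type labelled micro-aerobic. IDP2 (-0.21), FDH1 (-0.23), SDH2 (0.10), ERG11 (-0.24), ERG25 OPAR_004641 (0.24) and ADH7 (-0.04) were not called there. YAT1 (-1.62), ICL1 (-4.16) and ALD4 (-0.77) were lower in the mutant chemostat than in wild type labelled micro-aerobic, although higher than in wild type labelled aerobic. The glucose supply of the wild type groups differs (7.5 and 20 g/L), as do their labelled aeration and Tween 80, and these cannot be told apart.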

How the data were processed

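Polyadenylated RNA of phenol extracts was sequenced with a strand-specific TruSeq preparation, per the labels' protocols. The labels gave the groups. The series text calls the 2 libraries of a group biological replicates without saying more, and the spread behind each p-value may in part be technical.

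The deposited table holds raw counts: the authors counted pairs over gene features with featureCounts, requiring both ends to map and no chimera, per the file headers. As no strand option is recorded there, overlapping genes share reads that cannot be assigned. In the submitters' processing notes the tools are edgeR 3.28.1, featureCounts 1.6.0, Bowtie 1.2.1.1 and SAMtools 1.3.1. Coordinates are those of the deposited annotation of strain DL-1, whose sequence version is not stated there. Of the count table, 4 columns of other libraries were not used, nor were the values of 5 deposited comparison tables, none of which is this comparison. The 25 mitochondrial DNA genes had at most 1 count per library.

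Counts were tested with edgeR 4.0.16 (R 4.3.3): 5265 genes kept by filterByExpr, TMM scaling, all 8 libraries fitted with a mean per group (4 residual degrees of freedom, common biological coefficient of variation 0.118), two-sided quasi-likelihood F test, Benjamini-Hochberg adjustment at 0.05 over all genes tested. Log2 ratios are mutant chemostat over wild type labelled aerobic, with standard errors from the test statistic. The fit was also run on simulated counts in which few genes changed, equally many up and down. That setting differs from these data, where most genes were called, so it does not speak to the choice of scaling. A fold against a group at 0 is set against 3 counts over that group, and intervals cover counting error only.

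Of 5428 genes, 1179 had a symbol, from the annotation or from the annotated S. cerevisiae homolog by way of 804 symbols set down by hand. Where both gave one, 237 of 267 were the same. Symbols name the nearest homolog, and the paralog can be another. The members and the 39 lists were chosen with earlier results of these data known, and 22 symbols were added after values were seen. The rule for named genes took the deletion targets, the 10 largest changes each way with a symbol and the 5 without (called, at least 10 CPM in a group, groups not overlapping) and up to 4 called members per list, with further members given by value. Alternatives were other scalings, filters, DESeq2 1.42.0, the likelihood ratio test, the 4 libraries alone, overlapping genes left out and each library left out. Values of 2 list members are not reported here.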

Additional observations from a re-analysis of the deposited data

How the results depend on the processing

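No paired analysis was possible because the labels give these groups no shared replicate numbers that mark a pair. Under 13 alternatives the counts of 1648 higher and 1547 lower genes stayed within 1.5 times, except that scaling by library totals alone gave 950 lower genes and 321 at least 2-fold lower, against 541, since it moves the median of all genes. Leaving out 1 library at a time gave 1380 to 1646 higher and 1362 to 1658 lower genes, with 635 to 891 at least 2-fold higher and 486 to 669 at least 2-fold lower. No called gene was called in the opposite direction under any of these settings. DESeq2 called 1559 higher and 1601 lower genes, and 3101 of the 3195 main calls were kept. Of the 158 genes named by rule none reversed, and QCR10, ATP18, PEX10 and BPL1 lost their call under some settings. QCR10 (0.46, of complex III) was not called with the 4 libraries alone (0.46, adjusted p = 0.056), nor without mutant chemostat replicate 1 (0.31) or wild type labelled aerobic replicate 2 (0.29). With 2 libraries per group, spread is borrowed across groups, and genes under a few CPM carry wide errors. The common biological coefficient of variation (0.118) was below that of the mutant chemostat (0.157) and wild type labelled aerobic (0.153). Errors and p-values here may therefore be too small. With the 4 libraries alone, 1393 genes were higher and 1289 lower, and 2674 of the 3191 main calls tested were kept.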

Other observations

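Outside the lists, families set by protein domain were counted as well; these families and genes were chosen after values were seen. Of 77 genes tested with the fungal zinc cluster, a DNA-binding domain of transcription factors, 42 were higher and 14 lower in the mutant chemostat (median log2 ratio 0.62, beside 0.03 over all genes, of which 31.3% were higher and 29.4% lower). OPAR_000510 had 172 and 159 CPM in the mutant chemostat, against 14.9 and 8.68 CPM in wild type labelled aerobic, and OPAR_000603 had 55.0 and 60.2 CPM in the mutant chemostat, against 661 and 593 CPM. Proteasome genes fell in 20 of 43 cases and rose in 3 (median -0.28). Protein kinases, at 25 rises and 22 falls among 94, lay near or below the shares over all genes. Short-chain dehydrogenases rose in 13 of 30 cases, 11 of them at least 2-fold, and fell in 4, none at least 2-fold.

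On Chr_01, 3 adjacent oxidoreductase genes rose: OPAR_000156, of the zinc-containing alcohol dehydrogenase family, with 228 and 162 CPM in the mutant chemostat, against 5.91 and 4.42 CPM in wild type labelled aerobic (log2 ratio 5.25 ± 0.25), and the short-chain dehydrogenases OPAR_000157 (7.30 ± 0.35) and OPAR_000158 (5.06 ± 0.36). The first pair overlap each other. Among aldo-keto reductases, 8 of 16 fell and 4 rose, and OPAR_003576 had 31.9 and 40.2 CPM in the mutant chemostat, against 961 and 963 CPM.

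OPAR_001303, with the pyridine nucleotide-disulphide oxidoreductase domain that NDE1 shares but no annotated NADH dehydrogenase activity, had 24.9 and 18 CPM in the mutant chemostat, against 135 and 118 CPM in wild type labelled aerobic. It had 624 and 630 CPM in wild type labelled micro-aerobic and 31.7 and 31.1 CPM in the mutant batch.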
